A study of Mus musculus with 4 samples.

Results

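The cullin genes and the genes of the substrate adaptors that cullins carry were examined in poly(A) RNA from adult mouse testis. Members were chosen by symbol alone: every gene of the table whose symbol is Cul, Klhl, Asb, Fbxl, Fbxo or Fbxw followed by a digit, which gave 138 of 22073 genes. They comprise 8 Cul, 36 Klhl, 18 Asb, 18 Fbxl, 36 Fbxo and 22 Fbxw genes. The libraries come from the right testis of 4 sexually mature males of the KM strain. In 2 of them (hemicastrated 1 and 2) the left testis had been taken out before puberty, and the other 2 (control 1 and 2) had sham surgery at that time. No allele, transgene or drug is named for either group, and no age beyond maturity. The labels' protocol speaks of 3 mice per group and the series' design text of 2, and the labels give the molecule as genomic DNA although the protocol describes RNA. The protocol states that RNA of 4 individuals went into the libraries, so these were read as 4 separate mice.

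A cullin is the scaffold of a modular ubiquitin ligase. Its one end holds a RING protein, Rbx1 or Rnf7, which recruits the ubiquitin-loaded enzyme, and its other end holds an adaptor that picks the protein to be marked. CUL1 reaches its substrates through SKP1 and an F-box protein (the Fbxl genes carry leucine-rich repeats, the Fbxw genes WD40 repeats and the Fbxo genes other or no known domains), CUL3 through BTB proteins such as the Klhl family with their kelch repeats, and CUL2 and CUL5 through elongins B and C and a SOCS-box protein, which for the Asb family sits behind ankyrin repeats. CUL4A and CUL4B use DDB1. In the testis KLHL10 is known as a CUL3 adaptor of spermatids that male fertility depends on. The comparison asks whether this machinery is expressed at another level in the testis that remains after its partner is lost.

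Values are FPKM (fragments scaled to transcript length and to the mapped fragments of the library), so levels can be compared between genes. Of the 138 members, 2 had a mean over the 4 libraries of at least 100 FPKM, 28 lay from 10 to under 100, 56 from 1 to under 10 and 45 above 0 but under 1, and 7 were listed at 0 in all 4 libraries. Of all genes, 3486 (15.8%) were listed at 0 throughout, against 5.07% of the members. Together the members took 0.401% and 0.387% of all FPKM in control mice and 0.394% and 0.390% in the hemicastrated mice. Depth in reads is unknown, so precision rests on the 2 libraries of a group.

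Library composition bears on what follows. The summed FPKM ran from 343105 to 353135. The defining testis transcripts were present in every library: the 8 elongating spermatid markers summed to 21746 and 22966 FPKM in the controls and to 24000 and 24011 in the hemicastrated mice, with Prm1 among them at 5732 to 6458 FPKM. Markers of the epididymis, the duct beside the testis, separated the groups. Of 9 epididymis markers averaging at least 1 FPKM, and so tested, 8 fell and 0 rose. Adam7 and Lcn12 were listed at 0 in both hemicastrated libraries. Such markers passed the filter only through the controls, so a fall was the only outcome open to them. The other 6 were not tested, and 2 of those were at 0 in all 4 libraries. The 15 genes of that list summed to 1131 and 1612 FPKM in control mice against 6.09 and 8.94. Of 10 tested smooth muscle and peritubular myoid markers 5 fell and 0 rose, with sums of 368 and 335 FPKM against 239 and 271. Actg2, which was not called, made up most of these sums, at 219 and 213 FPKM against 183 and 209. Of the macrophage, endothelium, erythroid and spermatogonia markers 0 were called, and so it was for the Leydig, Sertoli, spermatocyte and both spermatid lists. Several of these nevertheless leaned upwards at an unadjusted p under 0.05, which 3.98% of all tested genes passed in the higher direction. There, 6 of 12 spermatocyte markers (median difference 0.25, sums of 765 and 770 FPKM against 909 and 839), 4 of 10 round spermatid markers and 3 of 9 tested Sertoli markers were higher and 0 lower. At the same threshold 2 of 8 Leydig markers were higher and 1 lower, and 1 of 8 elongating spermatid markers was higher. Of 7 tested macrophage markers 1 was lower, as were 6.52% of all tested genes. Of 6 tested spermatogonia markers 5 had negative differences, with 0 past that threshold. Over all 11343 tested genes, 6418 differences were negative and 4925 positive. In bulk tissue, fewer cells of a type and less RNA per cell cannot be told apart.

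Klhl10 (ENSMUSG00000001558, chromosome 11, 100441917 to 100457022, GRCm38) had the highest level of the 138 members, and Cul3 (ENSMUSG00000004364, chromosome 1, 80264923 to 80340480), the scaffold that KLHL10 binds, came next. Klhl10 stood at 135 and 125 FPKM in control mice and at 140 and 137 after hemicastration, rank 489 among all genes of the table. Both hemicastrated values lay above both control values, and the gap between the group means was smaller than the gap between the controls. Cul3 stood at 105 and 107 FPKM in control mice against 106 and 86.2, rank 716, and only hemicastrated 2 lay below the other libraries. The order of Klhl10 over Cul3 held in each of the 4 libraries.

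The stretches of 250 bases before the RefSeq transcription starts of these and of 2 Asb genes described below are given as examples. Promoters are from RefSeq on GRCm38.p6 and lie at chr11:100441674-100441923 on the plus strand for Klhl10, chr1:80340691-80340940 on the minus strand for Cul3, chr3:153843997-153844246 on the plus strand for Asb17 and chrX:164436744-164436993 on the plus strand for Asb11. Capitals mark TGACG (the core of the cAMP response element TGACGTCA, in which it lies), CCAAT and the GC box GGGCGG, each searched on both strands.
Klhl10: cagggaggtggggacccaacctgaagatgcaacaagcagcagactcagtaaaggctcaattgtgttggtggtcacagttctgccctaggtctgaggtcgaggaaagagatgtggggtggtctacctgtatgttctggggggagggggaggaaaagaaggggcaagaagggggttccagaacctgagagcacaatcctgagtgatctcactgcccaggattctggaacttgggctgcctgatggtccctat
Cul3: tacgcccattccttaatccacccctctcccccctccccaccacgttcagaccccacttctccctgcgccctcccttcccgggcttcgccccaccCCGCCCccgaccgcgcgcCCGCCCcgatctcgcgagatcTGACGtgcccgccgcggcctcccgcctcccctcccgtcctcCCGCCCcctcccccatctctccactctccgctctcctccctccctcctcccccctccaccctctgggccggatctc
Asb17: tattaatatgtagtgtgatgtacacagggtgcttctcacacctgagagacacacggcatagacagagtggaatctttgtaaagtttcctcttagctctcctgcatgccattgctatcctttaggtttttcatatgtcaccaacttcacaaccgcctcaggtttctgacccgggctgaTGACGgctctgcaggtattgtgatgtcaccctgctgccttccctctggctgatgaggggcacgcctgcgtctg
Asb11: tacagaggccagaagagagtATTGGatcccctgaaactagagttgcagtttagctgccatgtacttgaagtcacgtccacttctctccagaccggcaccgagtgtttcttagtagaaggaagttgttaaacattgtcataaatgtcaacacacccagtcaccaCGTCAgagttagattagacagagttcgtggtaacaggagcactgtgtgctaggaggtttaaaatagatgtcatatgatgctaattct

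Klhl10 had 1 CG dinucleotide and none of these motifs in this window, whereas Cul3 had 23 CG dinucleotides, 3 GC boxes and 1 TGACG. Asb17 had 6 CG dinucleotides and 1 TGACG, and Asb11 had 5, with 1 TGACG and 1 CCAAT. A promoter was found for 112 of the 138 members, 1 per gene. The median number of CG dinucleotides was 14 over 69 members averaging at least 1 FPKM and 4 over 43 members below it, beside 15 for all coding genes of at least 1 FPKM and 10 for all coding genes of the table. TGACG lay in 42.3% of the 26 promoters of members with at least 10 FPKM, 27.9% of those of all coding genes at that level and 17.9% of all promoters in the RefSeq table. GGGCGG lay in 46.2%, 54.1% and 32.9%, CCAAT in 26.9%, 37.4% and 34.5%, the Myb core AACNG, not in capitals above, in 76.9%, 76.0% and 74.1%, and the full TGACGTCA in 7.69%, 2.98% and 1.62% of the same sets. Over all coding genes of the table the shares were 20.9% for TGACG, 44.6% for GGGCGG, 36.0% for CCAAT, 72.9% for AACNG and 2.09% for TGACGTCA. The 7.69% rests on Fbxw9 and Klhl12 alone. These shares are descriptions of the letters, with no test.

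No member changed level by the test used. Genes that averaged 1 FPKM or more were compared as log2(FPKM + 1) with limma (86 members among 11343 genes), and differences are given as hemicastrated minus control on that scale, which understates the change of low genes. At an adjusted p under 0.05, 0 of 86 members were called higher and 0 lower, where 0.106% of all tested genes were called higher and 1.19% lower, so the members' share of 0 lies close to the share over all genes. At an unadjusted p under 0.05, 1 member was higher and 4 were lower, or 1.16% and 4.65% of the members beside 3.98% and 6.52% of all tested genes. The member counts moved with either control left out, and the shares of all tested genes in those fits are not set beside them. Klhl2, one of the 4 lower members, passed the filter only through its control values. The libraries of the groups did not overlap for 14 members in the higher direction and 21 in the lower. These are 16.3% and 24.4% of the members, beside 16.3% and 24.8% of all tested genes. No tested member combined non-overlapping libraries with group means at least 2-fold apart, which 0.397% of all tested genes did in the higher and 2.13% in the lower direction.

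The median difference over the 86 members was -0.053, beside -0.026 over all tested genes. Under quantile normalization both medians were above 0, at 0.010 and 0.017. The absolute difference was under 0.2 in 68 members (79.1%; all tested genes 71.9%), and the 95% interval of the limma fit lay between -1 and 1, in 85 members (98.8%; all tested genes 94.5%). The one member whose interval reached past 1 was Fbxw17. In 63 members (73.3%; all tested genes 71.5%) the gap between the group means was smaller than the larger gap between the 2 libraries of a group.

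**Figure D1:**
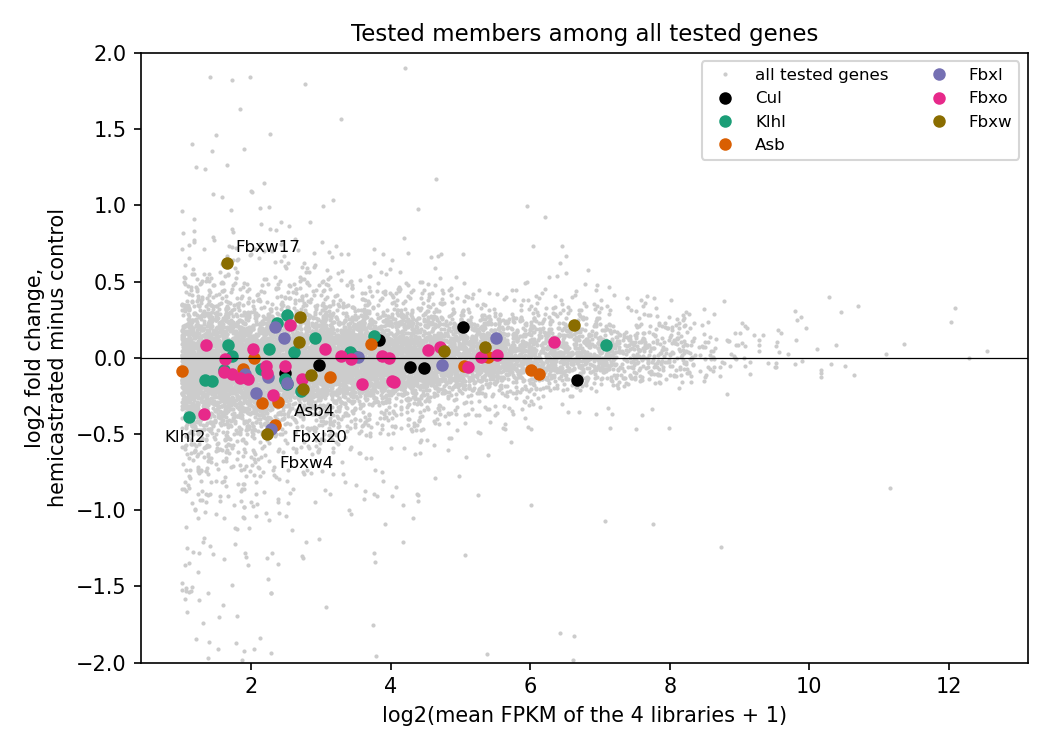
Difference between the groups (vertical axis, log2 scale, hemicastrated minus control) against level (horizontal axis, log2 of the mean FPKM plus 1) for 86 tested members, coloured by family, over all 11343 tested genes in grey. The 5 members with an unadjusted p under 0.05 are named, the members run from -0.50 to 0.62, and 64 other genes lie outside the axis limit of 2.

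Among the 8 scaffolds, 7 were tested and 0 were called, with a median difference of -0.059. It was 0.010 without control 2, 0.013 without hemicastrated 2 and -0.010 without hemicastrated 1. Cul1, which carries the F-box adaptors, stood at 28.4 and 30.4 FPKM in control mice against 34.7 and 33.0, so the groups did not overlap (log2 difference 0.20, 95% interval -0.02 to 0.42, adjusted p by limma = 0.535). Cul5, one of the scaffolds for SOCS-box adaptors, was at 12.0 and 13.3 against 13.5 and 14.1 FPKM, again without overlap but with hemicastrated 1 close to control 2 (log2 difference 0.12, adjusted p by limma = 0.766). The interval of Cul3 ran from -0.42 to 0.13 around -0.14 (adjusted p by limma = 0.726), and without hemicastrated 2 its difference was 0.004. The paralogues Cul4a and Cul4b were at nearly equal levels, 21.9 and 21.6 against 19.1 and 22.4 FPKM for Cul4a and 17.9 and 19.8 against 19.0 and 17.1 FPKM for Cul4b. Cul4b, on the X chromosome, was below Cul4a in each of the libraries. Cul2, the scaffold of the VHL ligase, was at 6.39 and 7.45 against 7.33 and 6.03 FPKM. The large scaffolds Cul9 and Cul7 closed the order, Cul9 at 5.11 and 4.42 against 4.02 and 4.71 FPKM and Cul7, just under the filter and not tested, at 1.14 and 0.839 against 0.857 and 1.08. In this order the ranges of Cul3, Cul1, Cul4a, Cul5, Cul2 and Cul9 do not touch one another, while those of Cul4a and Cul4b overlap.

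**Figure D2:**
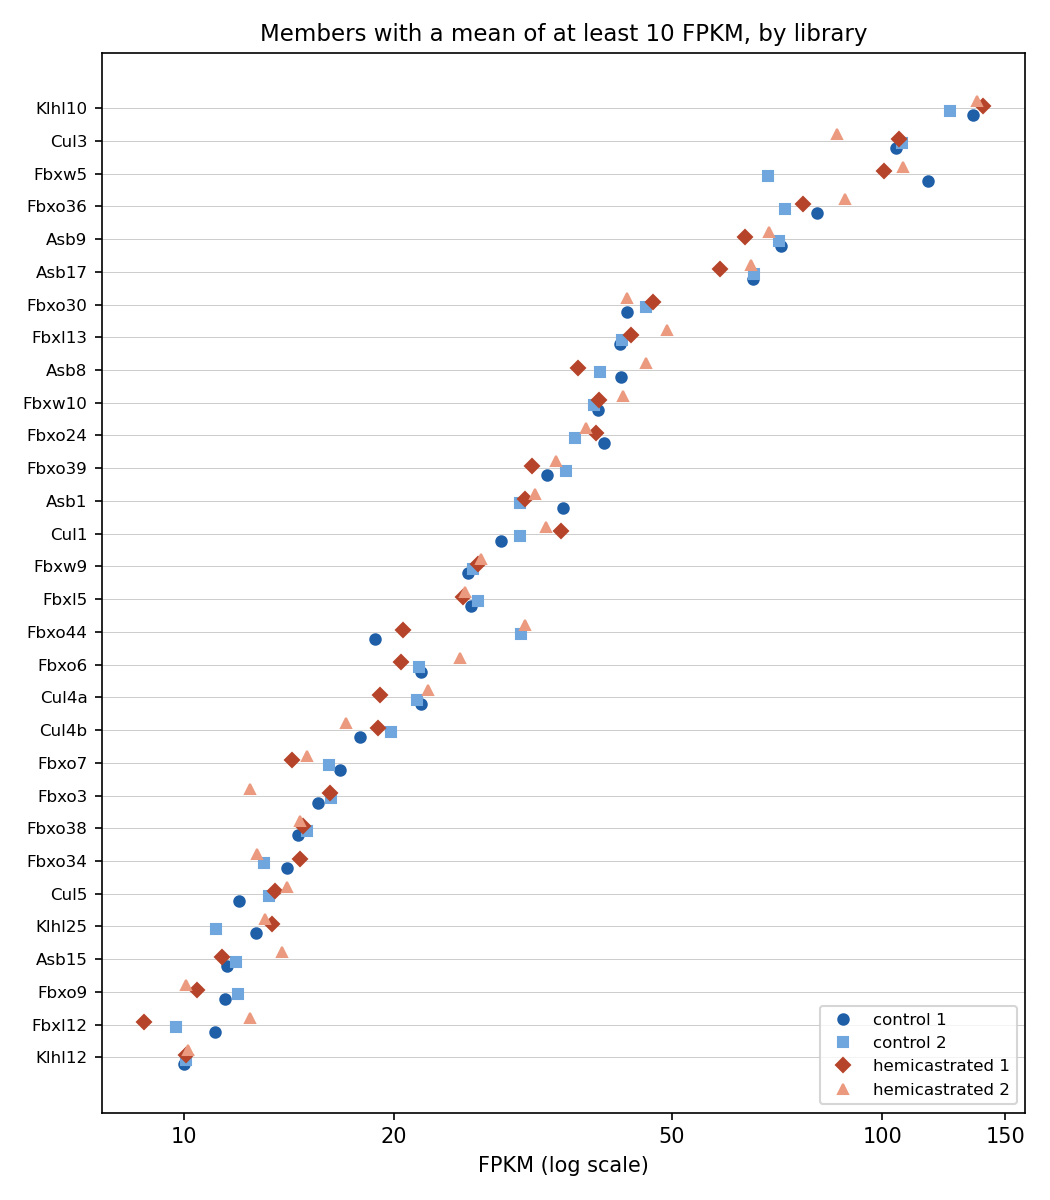
FPKM on a log axis of the 30 members averaging at least 10 FPKM, ordered by mean, with 1 point per library (blue circle and light blue square for control 1 and 2, red diamond and light red triangle for hemicastrated 1 and 2). Klhl10 and Cul3 lead, and in most rows the control and hemicastrated points interleave.

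Of the 36 Klhl genes, 20 were tested and 0 were called (median difference 0.011, but -0.011 with no filter on low values, -0.021 without control 1 and -0.062 without hemicastrated 1). Klhl10 alone passed 100 FPKM, with a difference of 0.09 (95% interval -0.11 to 0.29, adjusted p by limma = 0.777). Beside it, the 10 tested round spermatid markers had 0 calls and 10 positive differences (median 0.14), with sums of 1017 and 988 FPKM against 1108 and 1122. The 8 elongating spermatid markers had 0 calls, with 4 positive and 4 negative differences (median -0.02). The part of these cells in the Klhl10 values was not tested. Klhl11, 5.59 kb from Klhl10 and pointing towards it from the other strand, was at 4.88 and 5.15 against 5.01 and 5.36 FPKM. The next highest were Klhl25, which targets the translation repressor 4E-BP1, at 12.7 and 11.1 against 13.4 and 13.1 FPKM, and Klhl12, an adaptor for the coat protein SEC31, at 10.03 and 10.07 against 10.09 and 10.15. Klhl12 had the narrowest range of the 86 tested members, with its highest library 1.01 times its lowest.

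The Klhl gene with the smallest p was Klhl2 (ENSMUSG00000031605, chromosome 8, 64739675 to 64850017), an actin-binding adaptor that also targets WNK kinases. It was at 1.57 and 1.34 FPKM in control mice and 0.916 and 0.823 after hemicastration, both below the controls (log2 difference -0.39, SE 0.14, adjusted p by limma = 0.412). With both hemicastrated values under 1 FPKM, its mean of 1.16 passed the filter only through the controls. Klhl23, whose role is little known, was at 4.44 and 3.83 against 5.06 and 5.43 FPKM (log2 difference 0.28, adjusted p by limma = 0.533), and Klhl8 at 6.05 and 6.02 against 5.39 and 4.73 FPKM (log2 difference -0.22, adjusted p by limma = 0.618). In all 3 genes the groups did not overlap, and the gap between the means was larger than the gap within either group.

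Of the 18 Asb genes, 12 were tested and 0 were called. Their median difference was -0.085, with 9 negative and 3 positive, beside 6418 negative and 4925 positive over all 11343 tested genes. The Asb median was -0.152 without hemicastrated 2. The family is led by Asb9, an adaptor for creatine kinase B, and by Asb17, which is expressed almost solely in testis. Asb9 was at 71.7 and 71.1 FPKM in control mice against 63.5 and 68.9, both lower (log2 difference -0.11, 95% interval -0.32 to 0.10, adjusted p by limma = 0.726). Asb17 was at 65.4 and 65.5 FPKM against 58.7 and 65.0 (log2 difference -0.08, adjusted p by limma = 0.813), with hemicastrated 2 just under the controls. An antisense gene, Asb17os, shares 112 of the 2580 exonic bases of Asb17. Asb8 was at 42.3 and 39.4 against 36.7 and 45.8 FPKM and Asb1 at 35.0 and 30.3 against 30.8 and 31.8, both with overlapping groups.

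Below these stood Asb4 (ENSMUSG00000042607, chromosome 6, 5383386 to 5433022), an adaptor described in developing blood vessels. It was at 5.02 and 4.66 FPKM in control mice and 2.97 and 3.67 after hemicastration, without overlap (log2 difference -0.44, SE 0.14, adjusted p by limma = 0.333). Of the 8 endothelial markers, 2 were tested and 0 called, with log2 differences of 0.12 for Egfl7 and -0.03 for Esam. The other 6 were under the filter. Of these, 5 (Tek, Pecam1, Cdh5, Emcn and Kdr) were lower without overlap, as with Cdh5 at 0.976 and 0.653 against 0.582 and 0.441 FPKM. Such a fall was seen in 24.1% of all untested genes above 0. The list summed to 11.5 and 8.26 against 9.28 and 8.81 FPKM, with Egfl7 as its largest part. The part of these cells in the Asb4 values was not tested. Asb7 was at 4.04 and 3.72 against 3.09 and 2.85 FPKM (log2 difference -0.30, adjusted p by limma = 0.501), and the X-linked Asb12 at 4.22 and 5.29 against 4.12 and 3.28 (log2 difference -0.29, adjusted p by limma = 0.604).

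Asb11 (ENSMUSG00000031382, chromosome X, 164436994 to 164459170) stood just under the filter, with a wide gap between the groups. It was at 1.71 and 1.59 FPKM in control mice and at 0.362 and 0.180 after hemicastration, so that the hemicastrated mean was 0.165 of the control mean. Its mean of 0.959 FPKM kept it out of the test, and with no filter on low values its log2 difference was -1.06 (SE 0.12, adjusted p by limma = 0.0653). ASB11 is known in zebrafish for a role in muscle and neural progenitors. Asb9, 47.2 kb further along on the same strand, had the far higher levels given above and no gap of this size.

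**Figure D3:**
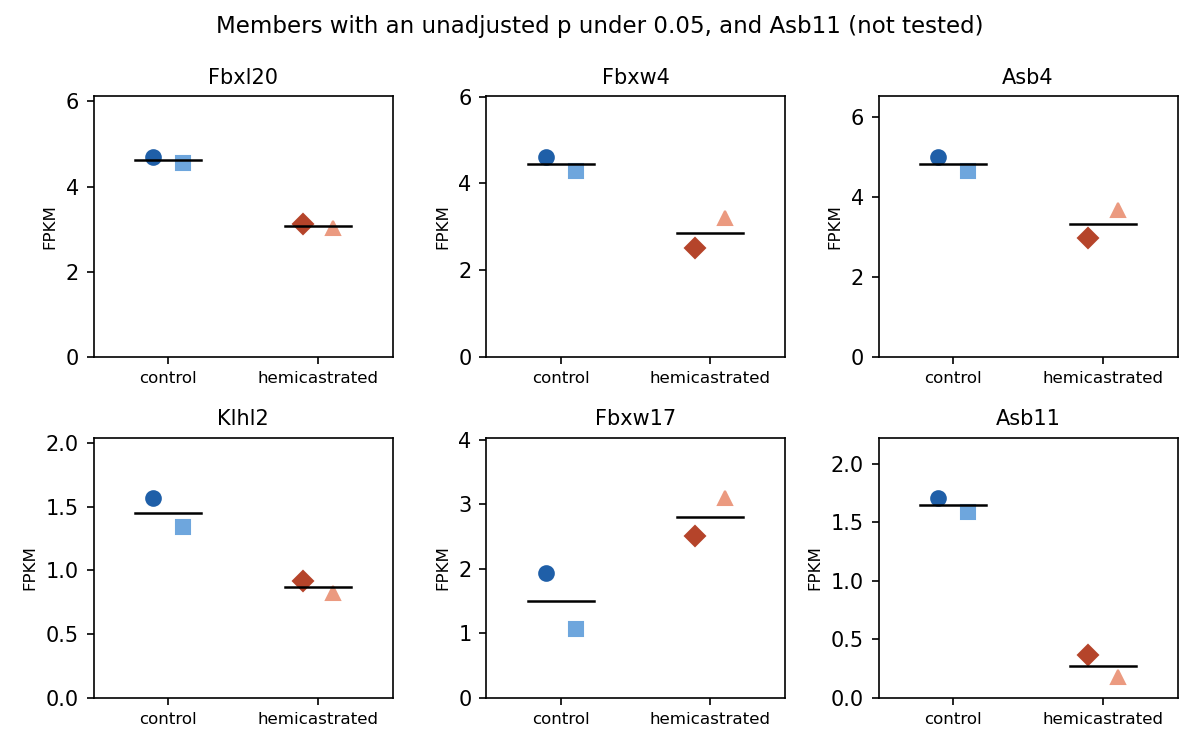
FPKM (vertical axes from 0) of the 5 members with an unadjusted p under 0.05 and of Asb11, with circles and squares for control 1 and 2, diamonds and triangles for hemicastrated 1 and 2, and a bar at each group mean. In Fbxl20, Fbxw4, Asb4, Klhl2 and Asb11 both hemicastrated values lie below both controls, and in Fbxw17 both lie above.

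Asb11 is one of 10 members listed as adaptors of striated muscle, of which 3 were tested and 0 called. Of the 7 that were not tested, 6 had both hemicastrated values below both controls and 1 overlapped. Of all untested genes above 0, 24.1% were lower without overlap. The list was chosen with earlier results of these data known, and these 7 genes average under 1 FPKM. The counts are therefore a description and no test. With no filter, 9 of 131 members had an unadjusted p under 0.05 in the lower and 2 in the higher direction, beside 6.92% and 3.27% of all 18587 genes. Besides those named elsewhere these were Fbxo10, at 0.955 and 0.884 against 0.478 and 0.440 FPKM, and Klhl14, at 1.05 and 1.08 against 0.610 and 0.558. Over all 45 untested members above 0, 13 were lower (28.9%) and 6 higher (13.3%, beside 12.3%). Fbxo32, the atrophy-linked F-box gene atrogin-1, was at 0.390 and 0.301 FPKM against 0.130 and 0.107, and Klhl40, a stabiliser of thin filament proteins, at 0.190 and 0.277 against 0.0887 and 0.0787. Fbxo40 was at 0.0975 and 0.182 against 0.0442 and 0.0712 FPKM, Asb2 at 0.765 and 0.962 against 0.643 and 0.763, and Fbxl22 at 0.432 and 0.285 against 0.246 and 0.283, where in the last 2 the groups nearly touched. Genes on the other strand share 540 of 2501 exonic bases of Klhl40, 317 of 3935 of Fbxl22 and 610 of 4425 of Klhl14. Without strand information these low values are uncertain. In Klhl31 the groups overlapped, at 0.322 and 0.167 against 0.0878 and 0.178 FPKM. With no filter, none of these muscle genes passed the adjusted threshold (adjusted p by limma of 0.261 for Fbxo32 and 0.38 for Klhl40). The smooth muscle markers were lower in the same libraries, as were the epididymis markers, and their part in these values was not tested. The 3 tested genes of the list overlapped between groups: Asb15 at 11.5 and 11.9 against 11.3 and 13.8 FPKM, Asb5 at 2.31 and 3.27 against 2.54 and 2.62, and Klhl41 at 1.55 and 2.12 against 1.79 and 1.31.

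The 76 F-box genes make up the largest class, with 47 tested and 0 called. In the Fbxl family (10 tested, median difference -0.076, but 0.044 without control 1, 0.002 with no filter and 0.006 at a mean of 5 FPKM) Fbxl20 had the smallest p of all 86 members. Fbxl20 (ENSMUSG00000020883, chromosome 11, 98082556 to 98150403) encodes the adaptor that targets RIM1 at synapses. It was at 4.70 and 4.55 FPKM in control mice and 3.11 and 3.02 after hemicastration, with gaps within the groups far smaller than the gap between them (log2 difference -0.47, SE 0.12, unadjusted p = 0.0084, adjusted p by limma = 0.238). A noncoding gene on the same strand, Gm11632, shares 674 of its 12106 exonic bases. The most abundant of the family were Fbxl13, at 42.1 and 42.4 against 43.8 and 49.2 FPKM, and the iron sensor Fbxl5, at 25.8 and 26.4 against 25.2 and 25.3 FPKM. Fbxl12, at 11.1 and 9.77 against 8.78 and 12.4 FPKM, shares 1890 of its 5090 exonic bases with Ubl5 on the other strand, and without strand information its value is uncertain. Fbxl15 was at 3.57 and 3.86 against 4.43 and 4.42 FPKM and Fbxl17 at 3.76 and 3.33 against 2.96 and 2.77 FPKM, each without overlap (adjusted p by limma = 0.647 and 0.615). Fbxl15 shares 345 of its 1348 exonic bases with Cuedc2 on the other strand, so its value is uncertain in the same way.

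In the Fbxo family (28 tested, median difference -0.030, and 0.016 under quantile normalization) no member had an unadjusted p under 0.05. Fbxo36, with no well known substrate, was the most abundant at 80.7 and 72.7 against 77.1 and 88.4 FPKM. Fbxo30 followed at 43.2 and 45.9 against 47.0 and 43.1, the sperm gene Fbxo24 at 40.0 and 36.4 against 38.9 and 37.7, and the testis gene Fbxo39 at 33.1 and 35.3 against 31.5 and 34.1 FPKM. In each of these 4 the groups overlapped. Fbxo47, needed for the synaptonemal complex in meiosis, was at 4.72 and 7.29 against 4.62 and 5.94 FPKM, and Fbxo43, the meiotic inhibitor of the anaphase-promoting complex, at 2.89 and 3.07 against 3.45 and 2.84. Fbxo7, linked to parkinsonism and to sperm formation, was at 16.7 and 16.2 against 14.3 and 15.0 FPKM, both lower (log2 difference -0.16, adjusted p by limma = 0.661). The smallest p of the family was that of Fbxo27, a glycoprotein-binding F-box gene, at 1.50 and 2.14 against 1.17 and 1.18 FPKM (log2 difference -0.37, adjusted p by limma = 0.510). Next came Fbxo11, at 4.20 and 4.58 against 3.59 and 3.50 FPKM, and Fbxo9, at 11.4 and 12.0 against 10.5 and 10.1.

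Fbxo44, Fbxo6 and Fbxo2 lie side by side on chromosome 4, with 0.659 kb between Fbxo6 and Fbxo44 and 0.138 kb between Fbxo44 and Fbxo2, which is on the other strand. FBXO2 and FBXO6 bind N-linked sugar chains. Fbxo44 was at 18.8 FPKM in control 1 and 20.6 in hemicastrated 1, and at 30.4 in control 2 and 30.8 in hemicastrated 2, so that the mice of each group stood further apart than the groups. Fbxo6 did not show this split (21.9 and 21.7 against 20.5 and 24.9 FPKM), nor did Fbxo2 (5.13 and 3.82 against 5.83 and 4.82 FPKM), where the number 1 libraries were the higher of each group. These 3 genes, and Asb1, Klhl11, Klhl14, Fbxo10, Fbxo31, Fbxo33, Fbxo34 and the Fbxw genes of chromosome 9 named below, were picked after their values were seen. Fbxo34, at 14.0 and 13.0 against 14.7 and 12.7 FPKM, has near-identical copies such as Gm7224, so its reads may be split. Fbxo31, which targets cyclin D1, was listed at 0 in all 4 libraries, as can happen when an estimate fails.

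In the Fbxw family (9 tested of 22, median difference 0.069, but 0.031 without control 1, 0.037 without hemicastrated 2 and 0.032 with no filter) Fbxw5, an adaptor for the centriole protein SAS-6, was the most abundant. It was at 116 and 68.7 FPKM in control mice and 101 and 107 after hemicastration, and control 2 stood apart from the other 3 (log2 difference 0.21, adjusted p by limma = 0.807, and -0.16 without control 2). Fbxw10 was at 39.2 and 38.7 against 39.3 and 42.5 FPKM and Fbxw9 at 25.5 and 25.9 against 26.4 and 26.6. Fbxw7, which targets cyclin E and MYC and restrains spermatogonial stem cells, was at 4.67 and 5.69 against 6.15 and 5.11 FPKM.

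Fbxw4 (ENSMUSG00000040913, chromosome 19, 45578254 to 45660312), known from limb development, was at 4.62 and 4.27 FPKM in control mice and 2.52 and 3.20 after hemicastration (log2 difference -0.50, SE 0.15, adjusted p by limma = 0.286). Both hemicastrated values were below both controls, and Gm17018 on the other strand shares 676 of its 3158 exonic bases. Fbxw17 (ENSMUSG00000037816, chromosome 13, 50417864 to 50433780) was the only member with an unadjusted p under 0.05 in the higher direction. It was at 1.93 and 1.06 FPKM in control mice and 2.51 and 3.10 after hemicastration (log2 difference 0.62, 95% interval 0.13 to 1.12, adjusted p by limma = 0.349). Its highest library was 2.92 times its lowest, the widest range of the 86 tested members, and without control 2 its log2 difference was 0.37. Fbxw8, the adaptor of Cul7, was at 6.60 and 5.75 against 5.34 and 5.08 FPKM (adjusted p by limma = 0.650), and the antisense gene Gm9754 shares 1845 of its 5525 exonic bases.

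The other 13 Fbxw genes were not tested, and they are the 13 members of a tandem cluster on chromosome 9, from 109139447 to 109746089, that is described as expressed in oocytes. Of these, 6 were listed at 0 in all 4 libraries, and the highest value of any was 0.579 FPKM, that of Fbxw18 in control 2. Fbxw20 was at 0.121 and 0.0734 against 0.327 and 0.393 FPKM, the smallest p in the higher direction among the untested members (adjusted p by limma = 0.203 with no filter). Fbxw14 and Fbxw28, both at 0, are 99.1% identical over 1497 bases, so reads of either could not be assigned with certainty.

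**Figure D4:**
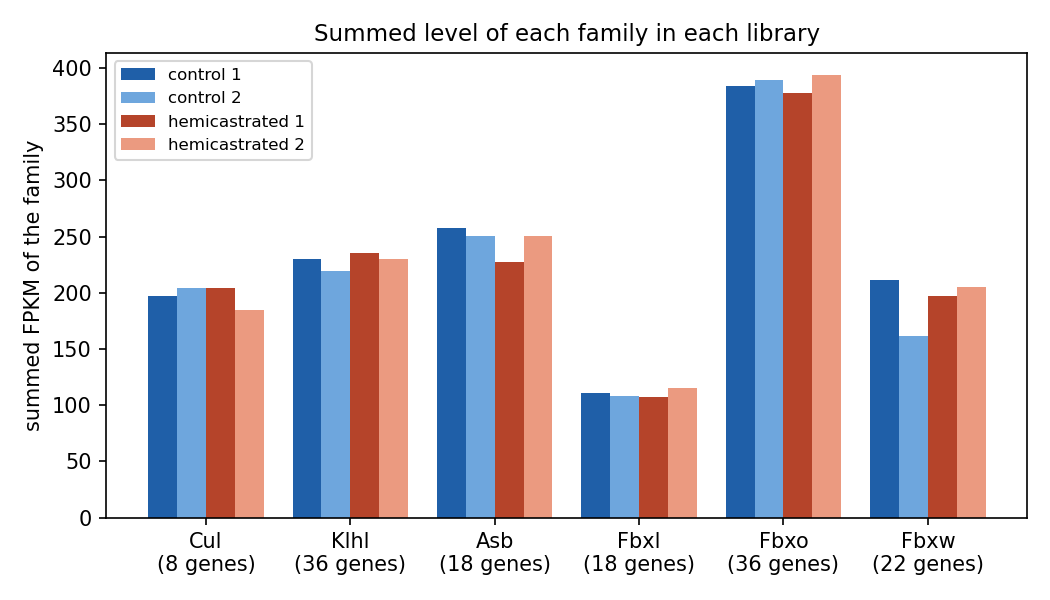
Summed FPKM of each family (vertical axis from 0) in each library, with control 1 and 2 in blue and hemicastrated 1 and 2 in red. The Klhl sums of the hemicastrated mice lie just above and the Asb sums just below those of the controls, the other 4 families overlap, and the Fbxw sum is lowest in control 2 at 162.

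Summed over each family, the groups lay close together. The Klhl genes summed to 230 and 219 FPKM in control mice against 235 and 230, the Asb genes to 257 and 251 against 228 and 250, and the F-box genes to 707 and 659 against 683 and 713. The scaffolds summed to 197 and 204 against 204 and 185 FPKM. Both hemicastrated mice were above both controls in the Klhl sum and below both in the Asb sum, in each case with hemicastrated 2 within 1 FPKM of a control. Of the members described in testis or germ cells 12 of 12 were tested and 0 called (median -0.06), and of the cell cycle, clock and iron F-box genes 6 of 9 were tested and 0 called (median 0.08).

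The partners of the cullins were read from fixed lists of 104 genes, of which 92 were tested and 0 called in either direction. Of the 6 RING and bridge genes, Eloc (elongin C, shared by the Asb adaptors) was at 133 and 164 FPKM against 170 and 204 (log2 difference 0.33, adjusted p by limma = 0.466), and Ddb1, the bridge of the Cul4 ligases, at 93.8 and 82.3 against 74.8 and 80.2 (log2 difference -0.18, adjusted p by limma = 0.601). Skp1a, the bridge to the F-box proteins, was at 87.2 and 85.8 against 87.6 and 95.5 FPKM. Rbx1 was at 7.29 and 6.17 against 6.10 and 6.64 FPKM and Rnf7, the partner of CUL5, at 39.6 and 36.6 against 39.2 and 41.8, so that Rnf7 was above Rbx1 in each library. Skp1a, Rbx1, Rnf7, and Cops5 and Kbtbd11 below, were named after their values were seen.

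NEDD8, a small ubiquitin-like protein, switches cullins on, and the COP9 signalosome takes it off. Among 13 tested genes of the NEDD8 pathway 0 were called and the median difference was 0.06, with Dcun1d1 at 44.4 and 45.8 against 50.8 and 50.2 FPKM (adjusted p by limma = 0.583) and the activating enzyme subunit Uba3 at 6.24 and 7.52 against 9.40 and 7.72 FPKM. Among the 10 signalosome genes 0 were called, and 8 differences were positive, beside 4925 of all 11343 tested genes. Their median was 0.08, in libraries where the spermatocyte and round spermatid markers also leaned upwards. The part of those cells in these values was not tested. Cops9 was at 206 and 199 FPKM against 237 and 254 (log2 difference 0.27, adjusted p by limma = 0.289), and Cops2 at 18.8 and 25.5 against 31.5 and 28.0 (log2 difference 0.42, adjusted p by limma = 0.413). The catalytic subunit Cops5 was at 99.3 and 103 against 98.2 and 107 FPKM. Of 8 ubiquitin-conjugating partners 0 were called, with a median of -0.05, Ube2g1 at 5.33 and 5.33 against 4.10 and 4.94 FPKM and Arih2 at 40.0 and 34.1 against 37.3 and 42.8.

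Of the adaptors whose symbols fall outside the rule, Socs7 had the smallest p. Of 55 tested, 0 were called, with a median difference of -0.04. Socs7, a SOCS-box adaptor, was at 57.0 and 56.3 FPKM in control mice and 41.6 and 39.8 after hemicastration (log2 difference -0.47, adjusted p by limma = 0.0798), with both hemicastrated values well below the controls. Without control 1 this list had 1 gene called lower, the BTB adaptor Kbtbd11, which was at 1.30 FPKM in control 1 and 6.78 in control 2 against 1.41 and 1.34, so that the call rested on control 2 alone. Crbn, the CUL4 adaptor that thalidomide binds, was at 22.1 and 23.7 against 28.5 and 27.0 FPKM (log2 difference 0.27, adjusted p by limma = 0.393).

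The spread over the 4 mice was much alike for members and other genes: the highest library was at the median 1.25 times the lowest over 86 members and 1.27 times over 11294 tested genes with no library at 0. After Fbxw17 the widest ranges were those of Klhl2 (1.91), Fbxo33 (1.85), Fbxo27 (1.84) and Fbxw4 (1.83). Fbxo33 differed within the hemicastrated group, at 5.95 and 3.23 FPKM, more than it did between the controls, at 4.74 and 4.50. With 2 libraries in each group the smallest two-sided p of an exact permutation test is 0.33, and the p-values above rest on the variance that limma shares between genes.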

How the data were processed

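Poly(A) RNA of 4 right testes, 2 hemicastrated and 2 sham-operated, was sequenced in read pairs without a strand-marking step, per the labels' protocols. The authors deposited 1 table of FPKM for 22073 Ensembl genes. Per the submitters' processing notes, TopHat2 2.0.11, Cufflinks 2.2.1 and GRCm38 were used. No counts were used, so depth is unknown and no counting intervals are given. Symbols were found for 21806 genes in GENCODE, and 267 had none.

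FPKM were analysed as log2(FPKM + 1) in R 4.3.3 with limma 3.58.1 (variance trend) over genes whose 4 libraries averaged 1 FPKM or more, with Benjamini-Hochberg adjustment over all 11343 and calls at an adjusted p under 0.05. The script was tested on simulated data. The alternatives were a pseudocount of 0.1, no filter or a mean of 5 FPKM, quantile normalization, TPM, no trend, robust variances, a replicate block and leaving out each library. Shared exons were counted in the GENCODE annotation, and copies are transcripts at least 95% identical over 200 bases.

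The members and lists were chosen with earlier results of these data known. The text names, per family, the 3 tested members with the smallest p and the 3 with the highest level, all scaffolds, the testis and muscle lists, any member called, any averaging 1 FPKM or more whose groups lay at least 2-fold apart without overlap (there was none), and of each partner list the 2 genes with the smallest p. Genes outside this rule are said to be so.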

Additional observations from a re-analysis of the deposited data

How the results depend on the processing

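At an adjusted p under 0.05, 0 members were called in the main fit and in each of 12 alternatives, while calls over all genes ranged from 0 to 30 higher and 63 to 167 lower. Members past an unadjusted p of 0.05 in the higher direction numbered 2 with no filter, 0 at a mean of 5 FPKM, 2 under quantile normalization and 0 to 2 with 1 library left out, and in the lower direction 9, 0, 3 and 2 to 4. Members without overlap, under alternatives chosen after seeing the data, numbered 8 higher at 5 FPKM and 22 to 28 with 1 library left out, and 34 lower with no filter, 7 at 5 FPKM and 32 to 41 with 1 library left out. More members enter with no filter (131), fewer at 5 FPKM (44), and a group of 1 library overlaps less easily. This holds for all genes. No share of all genes is set beside these counts, so they are no result about the members. The median over members was -0.029 with no filter, 0.008 at 5 FPKM, 0.010 under quantile normalization, -0.062 in TPM and -0.045 to -0.006 with 1 library left out. Over all genes it was -0.022, -0.009, 0.017, -0.036 and -0.049 to -0.006 in the same order. In the same order without TPM, the family medians were -0.011, 0.040, 0.057 and -0.062 to 0.011 for Klhl, 0.002, 0.006, -0.021 and -0.073 to 0.044 for Fbxl, and -0.052, 0.006, 0.016 and -0.038 to -0.023 for Fbxo. With 1 library left out the Fbxw median ran from 0.031 to 0.053, the Cul median from -0.056 to 0.013 and the Asb median from -0.152 to -0.053, and adaptors outside the rule called lower from 0 to 1. The lone library of a group is then assumed to vary like the other group. The cause of these shifts was not tested otherwise.

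Of 524 alternative differences of 45 named members, 495 kept their sign, and none of the 29 that did not was called in any setting. Under quantile normalization these were Asb5 at 0.026, Asb8 at -0.003 and Cul2 at 0.005. In TPM they were Asb8 at -0.004, Fbxl12 at -0.004, Fbxo24 at -0.005 and Klhl12 at -0.001. With 1 library left out the differences that crossed 0 ranged as follows: Asb15 -0.042 to 0.223, Asb5 -0.255 to 0.112, Asb8 -0.149 to 0.163, Cul2 -0.169 to 0.076, Cul3 -0.290 to 0.004, Cul4a -0.175 to 0.043, Cul4b -0.131 to 0.013, Fbxl12 -0.223 to 0.235, Fbxo24 -0.061 to 0.072, Fbxo30 -0.045 to 0.077, Fbxo43 -0.052 to 0.161, Fbxo47 -0.408 to 0.126, Fbxw5 -0.162 to 0.588, Fbxw7 -0.017 to 0.221. Same-numbered libraries shared almost no deviation over all tested genes together (correlation of deviations 0.0137 over 11343 genes). A correlation over all genes cannot exclude a pairing that touches few of them. With the replicate block, 0 members were called, 1 was higher and 3 were lower at an unadjusted p under 0.05, and calls over all genes were 30 higher and 167 lower.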
